A study of Rattus norvegicus with 12 samples.

Results

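The transcripts described here are 4 chaperone genes, Hspb1, Cryab, Hspa8 and Hspd1, among the 32883 genes of a count table from neonatal rat heart muscle cells. They were chosen by Ensembl identifier (ENSRNOG00000023546, ENSRNOG00000010524, ENSRNOG00000034066 and ENSRNOG00000014525, in that order), and the symbols are those given with the choice, since the files and the reference tables used here do not pair identifiers with symbols. The study precipitated the RNA-binding protein Cpeb4 and asked which transcripts come down with it, in resting cells and under a hypertrophic stimulus.

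Chaperones bind unfolded or partly folded proteins and keep them from aggregating. Hspb1 (HSP27) and Cryab (alpha B-crystallin) are small heat shock proteins that hold misfolded clients without using ATP, and in heart muscle both associate with the contractile and desmin cytoskeleton. Hspa8 is the constitutive cytosolic member of the HSP70 family, which folds clients in cycles of ATP hydrolysis. Hspd1 (HSP60) forms the chaperonin ring of the mitochondrial matrix, which folds imported proteins. Cpeb4 belongs to the cytoplasmic polyadenylation element binding proteins, which bind the 3′ end region of mRNAs and alter their polyadenylation and translation.

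Ventricular cardiomyocytes of Wistar rats labelled as 2 days old were given a mock treatment or phenylephrine (PE), an alpha-adrenergic agonist that induces hypertrophy, for 24 h. From each treatment there were 3 libraries of total RNA (input) and 3 of RNA eluted after precipitation with a Cpeb4 antibody (IP), 12 in all, and no antibody was used for the input. All cells came from a preparation by trypsin digestion and a Percoll gradient, and the labels do not say whether the replicates came from separate animals or cultures. The p-values therefore reflect only the spread among these libraries, which can be technical. A precipitate with a control antibody was not analysed here, and the labelled cell type was not checked against markers because no symbols could be matched. In such bulk RNA, fewer cells of a type and less RNA per cell cannot be told apart.

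Library totals ranged from 1423334 to 30216559 counts. Levels are given in CPM, counts per 1000000 after scaling by trimmed mean of M values (TMM). That scaling sets a trimmed mean of the log2 differences between libraries near 0, not each gene or each range of abundance. This choice matters for every comparison of IP with input; with plain library totals the log2 fold change of the median gene shifted by 1.21 in mock cells and 1.09 in PE cells. Differences are also given relative to the median gene. Mock input replicate 2, PE input replicate 1 and mock IP replicate 2 stood apart: they had 0 counts for 23.7% to 39.5% of genes at 5 to 10 CPM in reference libraries of their type, against at most 9.79% in the other 9 libraries. Results that rest on them are also given without replicate 2 of mock cells and replicate 1 of PE cells, input and IP alike, which leaves 8 libraries and is called the reduced set. The reduced set thus also lacks PE IP replicate 1, which did not stand apart (6.87%).

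Heat shock factors bind repeats of the 5-base unit NGAAN in alternating orientation, and such repeats mark the start of many chaperone genes. RefSeq windows of 300 bases (250 before to 50 after the start, build GRCr8) were matched by symbol for 3 of the 4 genes, Hspb1, Hspa8 and Hspd1. The windows were searched for GAANNTTC and TTCNNGAA, 2 adjoining units in either order. Each motif reads the same on both strands, and matches were allowed to overlap. The stretches that hold them are shown as the sequence feature these genes share, with the matches in capitals.
Hspb1 (chr12:26432402-26432431, minus strand): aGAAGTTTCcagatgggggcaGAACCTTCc
Hspa8, distal (chr8:50080293-50080322, plus strand): gcgagcgtGAAAGTTCCAGAAcgctgcggt
Hspa8, proximal (chr8:50080451-50080480, plus strand): cggaacccTTCTGGAAGGTTCtaagacagg
Hspd1 (chr9:64084256-64084285, minus strand): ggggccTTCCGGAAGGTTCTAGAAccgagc
The matches lay 129 to 102 bases before the start in Hspb1, 213 to 201 and 55 to 43 bases in Hspa8, and 242 to 225 bases in Hspd1, whose window lies inside the gene's span in the same reference. All 3 windows held a match, as did 15.9% of 33469 windows of that length (8.59% for GAANNTTC and 8.77% for TTCNNGAA). A match is a string of letters and was not tested as a binding site, and the RNA measured here does not bear on it directly.

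Cryab was the most counted of the 4 genes and was lower in the Cpeb4 precipitates than in input with TMM scaling, but not with library totals. Its level was 4449.95, 2938 and 3236 CPM in mock input replicates 1, 2 and 3 and 4824, 5178 and 5751 CPM in PE input. In the precipitates it was 2482, 1614 and 2407 CPM in mock cells and 3322, 2409.97 and 2660.5 CPM in PE cells. Within each treatment all 3 IP libraries lay below all 3 inputs, and the lowest value of all was mock IP replicate 2, 1 of the libraries that stood apart. By count Cryab ranked between place 16 and place 55 among the 8455 to 11822 genes detected in a library.

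**Figure D1:**
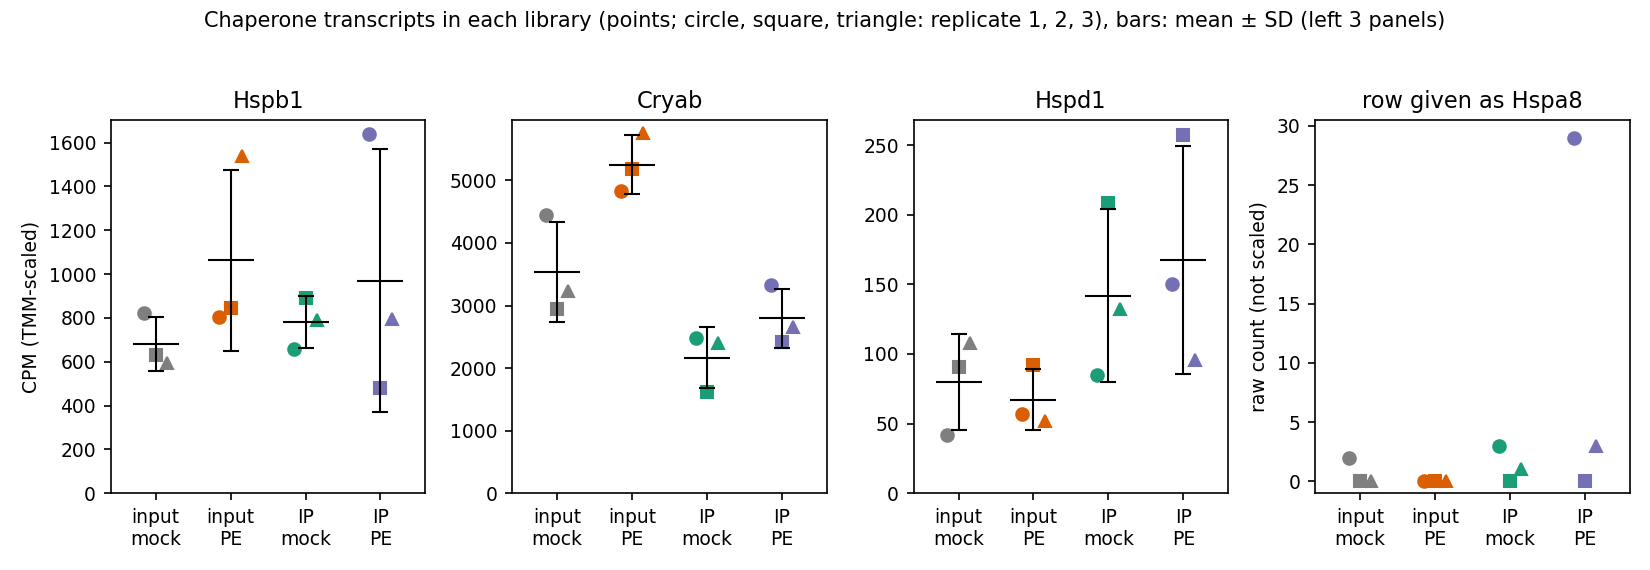
Level of each transcript in the 12 libraries, in TMM-scaled CPM for Hspb1, Cryab and Hspd1 and in raw counts for the row given as Hspa8. Points are libraries, with mean and SD of 3 per group, and the Cryab points of each IP group lie below those of the matching input group on this scaling, while by library totals they overlap.

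Over both treatments Cryab fell by 0.81 on the log2 scale in IP against input (SE 0.19, 95% interval -1.20 to -0.42, edgeR quasi-likelihood adjusted p = 0.0148). It was the only 1 of the 3 genes tested that passed, in a comparison where 5.88% of 10491 genes passed and 3.62% passed as lower. Within treatment the log2 fold change was -0.71 (SE 0.26, edgeR adjusted p = 0.302) in mock cells and -0.91 (SE 0.26, edgeR adjusted p = 0.0963) in PE cells, and neither passed. The separation of groups was not rare: all IP libraries lay below all inputs for 7.9% of genes in mock cells and 9.21% in PE cells.

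The call and the direction for Cryab have specific limits. With library totals in place of TMM the log2 fold change over both treatments was 0.35 (edgeR adjusted p = 0.245), the opposite sign. Relative to the median gene Cryab stood at -0.97 with TMM and at -0.95 with library totals. Without mock input replicate 1, the highest mock input value, the log2 fold change was -0.71 and did not pass (edgeR adjusted p = 0.0610), while in the reduced set it was -0.92 (edgeR adjusted p = 0.000218). In PE cells Cryab passed in the reduced set (log2 fold change -1.15, edgeR adjusted p = 0.00135), without mock IP replicate 2 alone (edgeR adjusted p = 0.0433), in the DESeq2 Wald test (adjusted p = 0.0133) and in limma voom (adjusted p = 0.00461).

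With TMM scaling most transcripts as abundant as Cryab were lower in the precipitate too. Of the 105 genes with a mean of 1000 to 10000 CPM, a range set after the values had been seen, 60.0% passed as lower in IP over both treatments and 0.952% as higher, with a median log2 fold change of -1.03. The value of Cryab lay above 63.8% of them. Cryab thus fell by less than the median gene of that range, and a lower value in IP was common to most transcripts of its abundance.

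**Figure D2:**
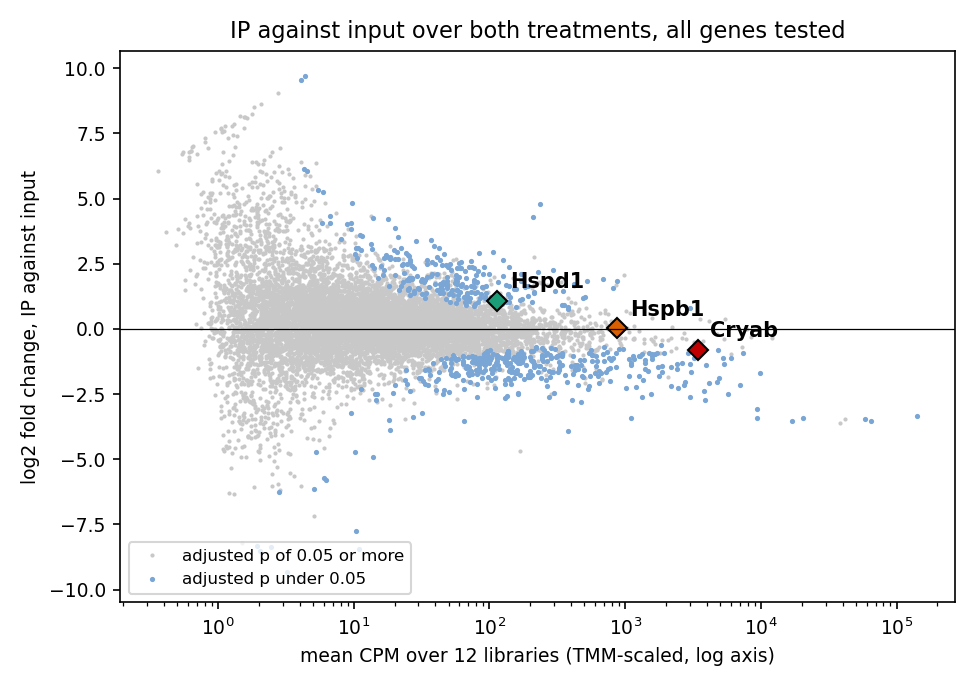
Log2 fold change of IP against input over both treatments for the 10491 genes tested (vertical axis), by mean TMM-scaled CPM over 12 libraries (horizontal log axis), with genes past the threshold in blue. The points sink below 0 to the right, Cryab (-0.81) lies within that band, Hspb1 (0.03) lies in its upper part and Hspd1 (1.08) lies above 0.

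Hspb1, the other small heat shock protein, did not differ past the threshold between precipitate and input with TMM scaling. Its level was 822, 631 and 593 CPM in mock input and 657, 892 and 791 CPM in mock IP. In PE cells it was 803, 847 and 1538 CPM in input and 1637, 479.7 and 793 CPM in IP. With TMM the groups overlapped in both treatments, with PE input replicate 3 and PE IP replicate 1 far above their groups. By library totals the mock IP libraries lay above the mock inputs, while the PE groups overlapped. How many of all genes separate likewise by library totals was not computed. The SD in PE IP was 61.7% of the mean, against 15.1% in mock IP.

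For Hspb1 the log2 fold change of IP against input was 0.19 (95% interval -0.63 to 1.01, edgeR adjusted p = 0.968) in mock cells and -0.13 (95% interval -0.95 to 0.69, edgeR adjusted p = 0.987) in PE cells. Over both treatments it was 0.03 (SE 0.27, 95% interval -0.55 to 0.61, edgeR adjusted p = 0.986). With library totals it was 1.21 and passed as higher (edgeR adjusted p = 0.00670), at -0.09 relative to the median gene. In the reduced set Hspb1 passed as lower in PE cells (log2 fold change -0.95, edgeR adjusted p = 0.0480) and stood at -0.47 over both treatments (edgeR adjusted p = 0.146). Without PE IP replicate 1 alone, the highest of all 12 libraries, the PE value was -0.74 (edgeR adjusted p = 0.553). Among the 155 genes with a mean of 500 to 2000 CPM, a range also set after the values had been seen, the median log2 fold change over both treatments was -0.75 and 40.6% passed as lower. Hspb1 lay above 81.3% of these genes.

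The row given as Hspa8 held almost no counts, which goes against its name, since Hspa8 is an abundant transcript of most cell types. It had 2, 0 and 0 counts in mock input, 0, 0 and 0 in PE input, 3, 0 and 1 in mock IP and 29, 0 and 3 in PE IP. That is 38 counts over 12 libraries, with 0 in 7 of them. PE IP replicate 1, the library with the highest total, held 29 of the 38 counts, or 0.960 CPM of the library total (95% exact binomial interval 0.643 to 1.38, for counting error only). A count of 0 allows up to 3 counts, which is 0.102 CPM in PE input replicate 3 and 2.11 CPM in mock input replicate 3. The row did not pass the low-count filter, so 3 of the 4 genes were tested.

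In build GRCr8 RefSeq lists 33 pseudogenes named after Hspa8 and 20 named after Hspd1 in the rat, and 0 named after Hspb1 or Cryab. The submitters list another build, Rnor_6.0. The sources do not state how reads that match several copies were counted. Whether the identifier of the row belongs to Hspa8 could not be checked. The level of the Hspa8 row is therefore not read as Hspa8 expression, and the level of Hspd1 is uncertain in size. The part of such copies in either value was not tested. Without the filter the row did not pass for IP against input over both treatments (edgeR adjusted p = 0.729).

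Hspd1, the mitochondrial chaperonin, was counted more often in the precipitates than in input, short of the threshold. Its level was 41.5, 90.7 and 108 CPM in mock input and 85.2, 209 and 132 CPM in mock IP. In PE cells it was 57.2, 92.4 and 51.8 CPM in input and 150.5, 257 and 95.4 CPM in IP. With TMM scaling all 3 PE precipitates lay above the 3 PE inputs, as for 12.9% of all genes. In mock cells IP replicate 1 lay below input replicates 2 and 3 on that scale. By library totals every IP library lay above every input library, but there the median gene was also higher in IP. How many of all genes separate likewise by library totals was not computed. The Hspd1 values rest on 80 to 7178 counts per library.

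For Hspd1 the log2 fold change of IP against input was 0.84 (SE 0.47, edgeR adjusted p = 0.559) in mock cells, 1.32 (SE 0.47, edgeR adjusted p = 0.205) in PE cells and 1.08 (SE 0.33, 95% interval 0.38 to 1.78, edgeR adjusted p = 0.0658) over both treatments. The last value passed without a low-count filter (edgeR adjusted p = 0.0165), in the DESeq2 Wald test (adjusted p = 0.0496) and without PE IP replicate 3 (edgeR adjusted p = 0.0409). With library totals it was 2.17 and passed (edgeR adjusted p = 0.00109), at 0.87 relative to the median gene against 0.92 with TMM. In the reduced set it was 0.91 (edgeR adjusted p = 0.173). The value over both treatments and the PE value also passed with the replicate block within treatment, given in the closing section. Whether the replicate numbers mark pairs was not tested. The values within a treatment moved with single libraries: in mock cells to 0.46 without IP replicate 2 and 0.53 without input replicate 1, and in PE cells to 0.88 without IP replicate 2. The reduced set gave 0.56 in mock cells and 1.27 in PE cells. The sign was positive for each of these settings and with each single library left out. Of the 1509 genes with a mean of 50 to 200 CPM, a range set after the values had been seen, 6.49% passed as higher, and Hspd1 lay above 91.9% of them.

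In mock cells 0 of the 3 genes tested passed for IP against input (edgeR), where 0.743% of all genes did. There 1 of the 3 had an unadjusted p under 0.05, as did 1130 of all 10491 genes. In PE cells 0 passed, where 2.11% of all genes did. There 2 of the 3 had an unadjusted p under 0.05, as did 1226 of the 10491 genes. DESeq2 and limma voom passed 0 of the 3 in mock cells and 1 each in PE cells. The difference between the treatments in IP against input passed for 0 of the 3 and for 0% of all genes (edgeR). An unadjusted p under 0.05 was found for 0 of the 3 and for 271 of the 10491 genes, and DESeq2 and voom passed 0 of the 3. That difference was -0.32 for Hspb1 (95% interval -1.48 to 0.84), -0.20 for Cryab (-0.98 to 0.58) and 0.48 for Hspd1 (-0.90 to 1.86), all on the log2 scale. Each interval includes 0 and values as large as the gene's own difference between IP and input, so a change of enrichment with PE was not detectable at this spread. With 1 library left out it ranged from -0.93 to 0.042 for Hspb1, from -0.40 to -0.084 for Cryab (lowest in size without mock input replicate 2) and from 0.035 to 0.87 for Hspd1 (lowest without PE IP replicate 2). In the reduced set it was -0.94, -0.46 and 0.71 for the 3 genes in that order.

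**Figure D3:**
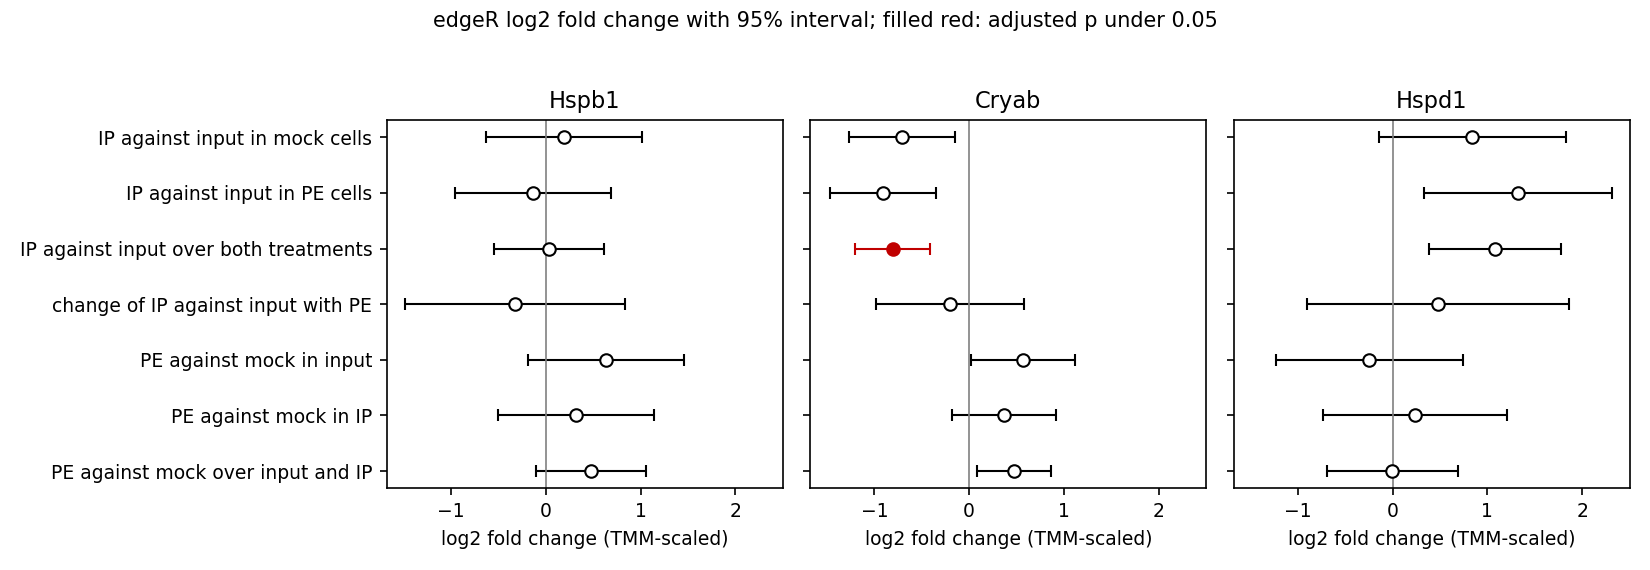
Log2 fold change of Hspb1, Cryab and Hspd1 in 7 comparisons (horizontal axis, TMM-scaled), with 95% intervals from the edgeR fit. The only filled point is Cryab for IP against input over both treatments, at -0.81.

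The ratio of 2 transcripts within a library does not depend on the scaling and shows how the 3 genes parted. The count of Hspd1 per count of Cryab was 0.00933, 0.0309 and 0.0333 in mock input and 0.0119, 0.0179 and 0.00900 in PE input. It was 0.0343, 0.129 and 0.0548 in mock IP and 0.0453, 0.107 and 0.0359 in PE IP. All 6 precipitates lay above all 6 inputs, though mock IP replicate 1 exceeded mock input replicate 3 only narrowly. On the log2 scale the ratio was higher by 1.86 in IP, and the pooled SD of the groups was 0.86. Of 10490 genes, 7.36% had a ratio to Cryab that was higher in every IP library than in every input library, so this pattern was not rare.

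The count of Hspb1 per count of Cryab was 0.185, 0.215 and 0.183 in mock input and 0.265, 0.553 and 0.328 in mock IP, without overlap. For 21.7% of genes the ratio to Cryab was likewise higher in all mock precipitates than in all mock inputs, and for 33.4% in PE cells. In PE cells the ratio was 0.166, 0.164 and 0.267 in input and 0.493, 0.199 and 0.298 in IP, and the groups overlapped through PE input replicate 3 and PE IP replicate 2. Over both treatments the ratio of Hspb1 to Cryab was higher by 0.79 on the log2 scale in IP, with a pooled SD of 0.48. The ratio of Hspd1 to Hspb1 was higher by 1.07 on the log2 scale in IP, with a pooled SD of 0.97 and overlapping groups in both treatments. These ratios are descriptions and carry no test.

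**Figure D4:**
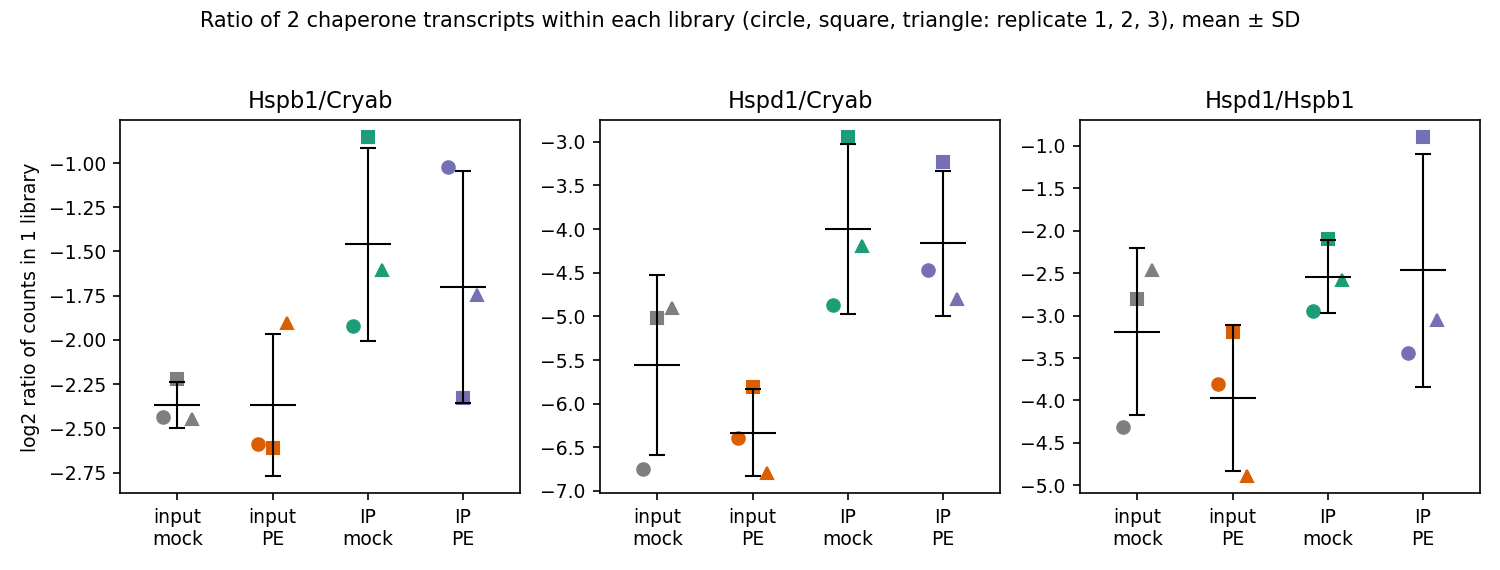
Log2 ratio of the counts of 2 transcripts in the same library (vertical axis) by group, with mean and SD of 3 libraries. The Hspd1/Cryab points of the 6 IP libraries lie above those of the 6 inputs, while the Hspd1/Hspb1 groups overlap.

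No difference between PE and mock cells passed the threshold for the 3 genes. Cryab had the clearest difference in input, where the 3 PE libraries (4824 to 5751 CPM) lay above the 3 mock libraries (2938 to 4449.95 CPM), with a log2 fold change of 0.57 (SE 0.26, 95% interval 0.02 to 1.12, edgeR adjusted p = 1.00). In the precipitates its groups overlapped with TMM scaling, at 2168 ± 481 CPM (SD, n = 3) in mock and 2798 ± 471 CPM (n = 3) in PE cells. By library totals the 3 PE precipitates (3668 to 5245 CPM) lay above the 3 mock precipitates (2352 to 3551 CPM). How many of all genes separate likewise on that scale was not computed. On that scale the median gene was also higher under PE, by 0.25 on the log2 scale. With TMM the log2 fold change of Cryab in IP was 0.37 (95% interval -0.18 to 0.92, edgeR adjusted p = 1.00). Averaged over input and IP it was 0.47 (SE 0.18, edgeR adjusted p = 0.627). The value in IP rested on single libraries, with 0.20 without mock IP replicate 2 and 0.22 without PE IP replicate 1. In the reduced set Cryab stood at 0.50 in input, 0.039 in IP and 0.27 over both pools (edgeR adjusted p = 0.742, 0.979 and 0.488). All PE inputs lay above all mock inputs for 5.67% of genes, so such a separation in itself was not rare.

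Hspb1 had higher means under PE in both pools, with uneven replicates. The input libraries held 1063 ± 412 CPM (SD, n = 3) under PE against 682 ± 123 CPM (n = 3) under mock treatment, and the log2 difference of 0.64 did not pass (95% interval -0.19 to 1.46, edgeR adjusted p = 1.00). The precipitates held 970.1 ± 599 CPM under PE against 779.7 ± 118 CPM (n = 3 each), with 0.32 on the log2 scale (95% interval -0.51 to 1.14, edgeR adjusted p = 1.00). Without PE input replicate 3 the input value was 0.27, so much of its size rested on 1 library. It stayed positive with each single library left out (0.27 to 0.81). Without PE IP replicate 1 the IP value was -0.29, so its sign rested on 1 library. The reduced set gave 0.74 in input and -0.20 in IP. Hspd1 was at 80.0 ± 34.3 CPM in mock and 67.1 ± 22.1 CPM in PE input (n = 3 each), and at 142 ± 62.4 and 168 ± 82.2 CPM in mock and PE IP (n = 3 each). Its log2 fold changes were -0.24 (95% interval -1.23 to 0.74) and 0.24 (95% interval -0.73 to 1.21), both at an edgeR adjusted p of 1.00. The reduced set gave -0.012 and 0.70.

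Of the 3 genes tested, edgeR passed 0 for PE against mock in input, in IP and over both pools, where 0.00953%, 0.00953% and 0.124% of all genes passed. At an unadjusted p under 0.05 the numbers were 1, 0 and 1, the gene being Cryab each time. Of all 10491 genes, 375, 581 and 683 did so in the same order. DESeq2 and voom passed 0 of the 3 in each. Comparisons in input and in IP share no library, while those of IP with input and of PE with mock share theirs, so they are not independent of each other.

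As a share of all counts, the 4 genes held 0.262% ± 0.0581 (SD, n = 3) of mock input, 0.467% ± 0.0679 (n = 3) of PE input, 0.440% ± 0.0388 (n = 3) of mock IP and 0.617% ± 0.170 (n = 3) of PE IP. Cryab gave most of these counts, with 472785 over all libraries against 170530 for Hspb1, 19840 for Hspd1 and 38 for the row given as Hspa8. The shares of PE input (0.416% to 0.544%) lay above those of mock input (0.206% to 0.322%), and the 3 PE precipitates (0.479% to 0.807%) lay above the 3 mock precipitates (0.396% to 0.464%). By library totals the median gene was also higher under PE, by 0.31 in input and 0.25 in IP on the log2 scale. How often other sets of 4 genes separate likewise was not tested, and most of the sum is Cryab. On TMM-scaled library sizes the order of the pools turned: 0.430% and 0.638% in mock and PE input against 0.309% and 0.394% in mock and PE IP. The PE means stood above the mock means in both pools on either scale, although the TMM-scaled IP groups overlapped.

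Across the 12 libraries the 3 genes did not follow one another closely. On log2(CPM + 1), Pearson's r was 0.40 for Hspb1 and Cryab, -0.25 for Hspb1 and Hspd1 and -0.76 for Cryab and Hspd1, values that describe 4 groups and the scaling shared by them. Among the 5864 genes whose mean reached 10 CPM, the gene with the pattern most like Cryab was ENSRNOG00000002851 (r = 0.94), and the gene most like Hspd1 was ENSRNOG00000023919 (r = 0.94). No gene reached r = 0.9 with Hspb1, where the highest value was 0.899. Ranked by Spearman's rho, other genes came first for each of the 3.

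**Figure D5:**
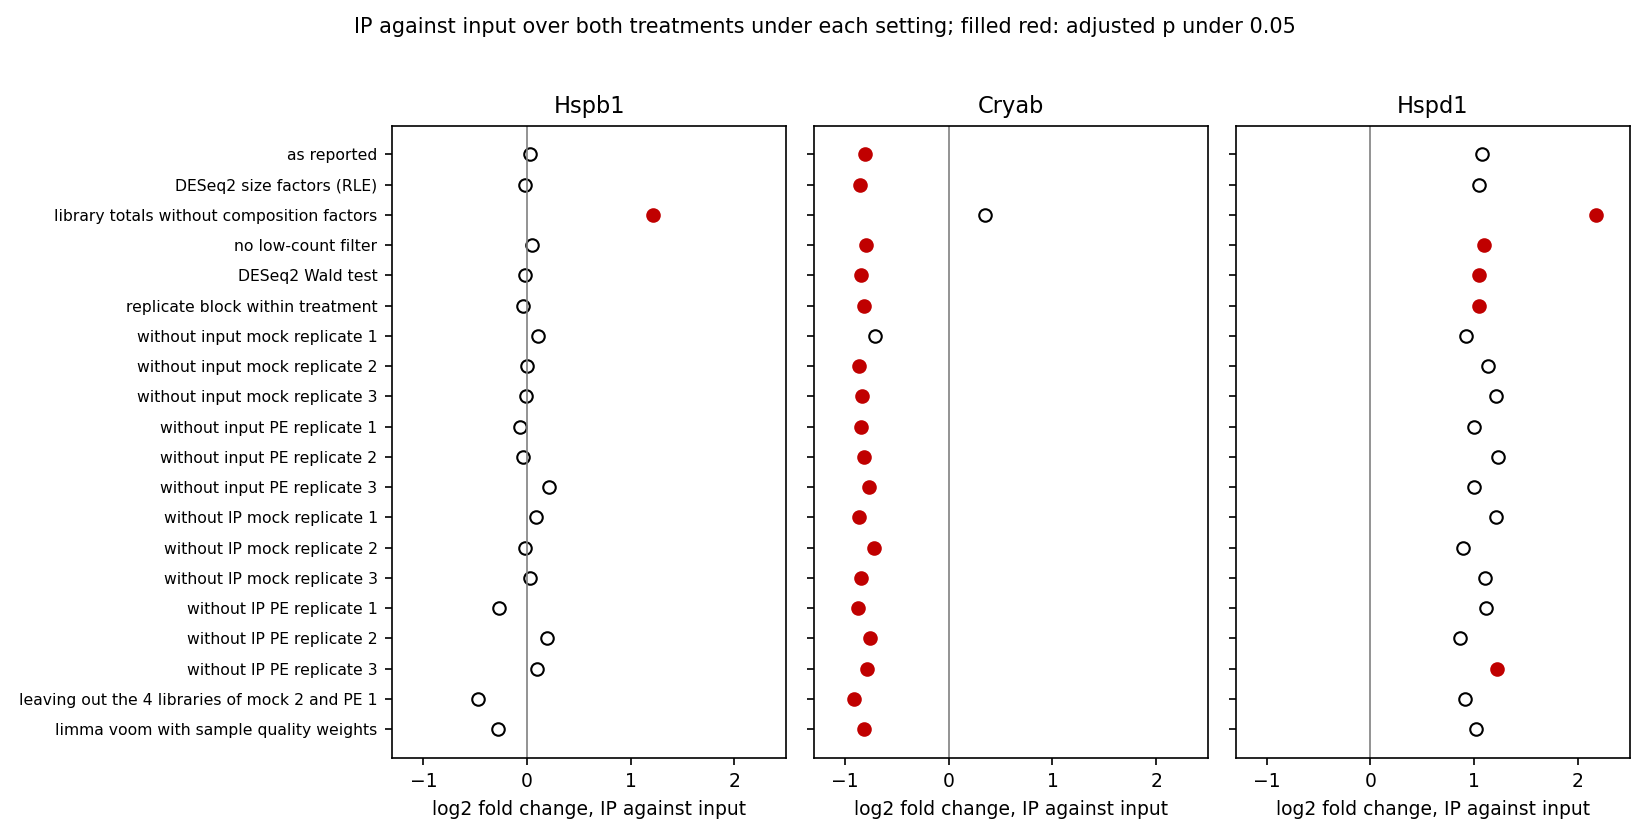
Log2 fold change of IP against input over both treatments (horizontal axis) for Hspb1, Cryab and Hspd1 under each processing setting (rows), filled where the adjusted p was under 0.05. Cryab is below 0 in all settings except library totals (0.35), Hspd1 is above 0 in all of them and Hspb1 lies on both sides of 0.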

How the data were processed

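RNA of 12 libraries (input and Cpeb4 IP, mock and PE, 3 each) was sequenced with the Lexogen QuantSeq kit (input 200 ng), which reads the 3′ ends of transcripts. The values are the raw counts per Ensembl gene that the authors deposited as 1 table, without normalization. Cutadapt 2.5, STAR 2.7, featureCounts 1.6.4 and DESeq2, with the build Rnor_6.0, are listed in the submitters' processing notes, and their options are not stated. The 32883 blank lines were skipped and 10491 genes passed filterByExpr, holding at least 99.6% of the counts of each library.

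From the counts, edgeR 4.0.16 in R 4.3.3 (TMM, 1 fit of 4 group means, robust quasi-likelihood F-test) tested 7 contrasts over all genes, with Benjamini-Hochberg adjustment and a threshold of 0.05. The SE was the log2 fold change divided by the square root of F, and intervals used the t distribution of the fit. Replicate libraries of a group differed by more than sampling noise (lowest chi-square per degree of freedom 7.79). Same-numbered input and IP libraries deviated together in mock cells (r = 0.266, 0.324 and 0.196). Input and IP libraries of different numbers were not compared, so these values do not show that the numbers mark pairs. The fit blocked by number changed no call of the 3 genes in mock cells. In PE cells and over both treatments that fit did change calls, as given in the closing section. Alternatives were other scalings, no filter, DESeq2 1.42.0, limma 3.58.1 voom, fits of 6 libraries, replicate blocks and libraries left out. The steps were tested on simulated data with planted changes larger than the TMM-scaled changes of the 3 genes. Apart from the planted changes, the simulated libraries shared 1 composition. Those data do not show how changes of the size given here are recovered. All 4 genes are named in each comparison, and the gene most like a member by Pearson's r is named for at most 2 of them. The genes, lists and tests were chosen with earlier results of these data known. The reference table of 47357 RefSeq genes (GRCr8) holds 0 Ensembl identifiers, so 8 further chaperone gene lists and the cell type markers were not used here. Reads without molecular identifiers may be PCR copies, and intervals and floors from counts cover counting error only.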

Additional observations from a re-analysis of the deposited data

How the results depend on the processing

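Values are log2 fold changes or numbers of the 3 tested genes past the threshold. Cryab in IP against input over both treatments passed in 17 of 19 alternatives; with 1 library left out it ranged from -0.88 to -0.71 and passed in 11 of 12. With library totals Cryab turned to 0.52 in mock cells, 0.18 in PE cells and 0.35 over both, Hspb1 to 1.02 in PE cells, and the number past the threshold was 2 in mock cells, 1 in PE cells and 2 over both. The summed shares moved to 0.430%, 0.638%, 0.309% and 0.394% (mock input, PE input, mock IP, PE IP) on TMM-scaled library sizes.

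For IP against input in PE cells, where 0 passed, the number was 1 with DESeq2, 1 with voom, 2 in the reduced set and 0 to 1 with 1 library left out (1 without mock IP replicate 2). Over both treatments, where 1 passed, it was 2 with no filter, 2 with DESeq2 and 0 to 2 with 1 library left out (0 without mock input replicate 1, 2 without PE IP replicate 3). The replicate block within treatment gave 2 in PE cells (Cryab -0.92, Hspd1 1.25) and 2 over both treatments (Cryab -0.81, Hspd1 1.05). In both treatments, same-numbered input and IP libraries also share a letter in the column names of the count table. In PE cells they did not all deviate together (r = 0.317, 0.0155 and 0.343), and whether they pair was not tested. Mock and PE libraries of the same number did not all deviate together (r from -0.376 to 0.263), and the block across treatments changed no call of the 3 genes.

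Values near 0 changed sign. Hspb1 over both treatments was -0.018 with DESeq2 size factors, -0.016 with DESeq2, -0.036 with the replicate block, -0.47 in the reduced set and -0.28 with voom. Hspb1 was -0.0031 in mock cells in the reduced set, and for PE against mock in IP it was -0.20 in that set and -0.059 with voom. Hspd1 for PE against mock was 0.21 in input with voom, and over both pools it was 0.0097 with DESeq2 size factors, 0.15 with library totals, 0.0095 with DESeq2, 0.019 with the replicate block across treatments, 0.34 in the reduced set and 0.40 with voom. With 1 library left out, Hspb1 ranged from -0.74 to 0.24 for IP against input in PE cells, from -0.27 to 0.22 over both, from -0.93 to 0.042 for the change with PE (Cryab from -0.40 to -0.084, Hspd1 from 0.035 to 0.87) and from -0.29 to 0.64 for PE against mock in IP. Hspd1 for PE against mock ranged from -0.56 to 0.022 in input, from -0.21 to 0.62 in IP and from -0.23 to 0.19 over both. The cause was not tested.

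Over all genes, calls for IP against input over both treatments ranged from 111 to 2823 higher (237 as reported) and from 65 to 863 lower (380 as reported), the highest number of higher calls coming with library totals. With TMM 38.4% of these calls were higher, and with library totals 97.7%. In mock cells the ranges were 0 to 842 higher (17 as reported) and 1 to 349 lower (61), and in PE cells 3 to 641 higher (48) and 24 to 623 lower (173). For PE against mock over both pools they were 2 to 89 higher (10) and 0 to 37 lower (3). The row given as Hspa8 did not pass the low-count filter and has a test only without it.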
